A study of Mus musculus with 12 samples.

Results

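The 34 genes described here carry out or control 3 linked tasks, the synthesis of cholesterol, its esterification and its efflux from the cell. They were chosen by gene name for these roles, and all 34 were found among the 16971 genes of the deposited table. The cells were GFP(+) nonparenchymal cells, isolated by FACS from Prom1CreERT2-nLacZ/+;Rosa26Lsl-GFP/+ mice (6 weeks old when given tamoxifen, both sexes), and their mRNA was sequenced. The labels give the strain as C57BL/6, and in the study the *Prom1* allele came from C57BL/6N and the *Rosa26* reporter from C57BL/6J mice. Every mouse, controls included, carried both alleles and received tamoxifen 7 days before surgery, so that cells expressing *Prom1* at that time, and their progeny, were labelled with GFP under the ubiquitous *Rosa26* locus. The groups were day 0, which the labels call sham and the study describes as before surgery, and days 3 and 14 after bile duct ligation (BDL), an operation that obstructs the flow of bile. The gate for GFP was set on wild type livers, after nonparenchymal cells had been enriched. By design GFP records past *Prom1* expression, and in sections of uninjured adult liver the study saw GFP(+) cells within the bile ducts. Whether every sorted cell had expressed *Prom1* was not tested here. The proportion of males and females differed between the groups and cannot be told apart from the time after BDL. The same holds for age at isolation, which rose with that time.

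The table gives each gene 1 mean per group of counts normalized by the upper quartile method, here called the normalized count. Day 0 and BDL day 3 had 3 libraries each and BDL day 14 had 4, while the labels list 6 samples of BDL day 14. No value of a single library was given other than that of the highest library of each gene, whose sample is not named, so no replicate test was possible and no p-value is given. A ratio of 2 group means beyond 1.5-fold (0.58 on the log2 scale) was taken as higher or lower. An approximate standard error (SE) of each log2 ratio was read from the difference between the arithmetic and the geometric mean over the 10 libraries, on the assumption of 1 common spread in all groups. From the same values and the highest library, the range that any single library could take was computed without that assumption, and groups whose libraries had to lie apart were called non-overlapping. Of the 34 genes, 33 reached the minimum of 10 normalized counts summed over the 10 libraries. *Ch25h*, which encodes an enzyme that forms an oxysterol, did not, with a mean of 0.397 for day 0 and means of 0.291 and 1.62 for the BDL groups.

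Cells make cholesterol from acetyl-CoA, first through the mevalonate arm and then through squalene and a series of sterols. When sterols in the endoplasmic reticulum run low, SCAP escorts the SREBP transcription factors to the Golgi for activation and the genes of synthesis and uptake are induced, whereas INSIG proteins hold the complex back when sterols are plentiful. Excess cholesterol is converted to oxysterols, which activate the liver X receptors (LXR), and these induce genes of efflux and phospholipid remodelling. In macrophages, which take up cholesterol with the cells and debris they clear, the surplus is stored as esters by SOAT1 and released from them by hydrolases such as NCEH1.

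Promoters of these genes are given first because members of the module are known to share regulators. RefSeq promoter sequences of GRCm38.p6 (250 bases before to 50 bases after a start) were matched to 27 of the 34 genes, with 33 promoters in all. The letters CCAAT, the core of the box bound by NF-Y, a partner of SREBP, were present on either strand in 23 of these 33 promoters (69.7%) and in 37.4% of all 32851 promoters in the table. Of the 15 synthesis enzymes matched, 14 had at least 1 promoter with CCAAT. The letters TCACNCCAC, a form of the sterol regulatory element, were present in 1.24% of all promoters and in 1 promoter of the module, that of *Hmgcs1*, 137 bases before the start. An E-box, CACGTG, was found in 8 of the 33 promoters (24.2%) and in 7.15% of all. A strict LXR element of the form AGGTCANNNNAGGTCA was in none of the 33 and in 0.0152% of all. These are matches of letters in a short window, searched on both strands, and no binding was measured.

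The bases before the start of 4 members follow, on the plus strand and 5′ to 3′, to set a synthesis enzyme that was lower after BDL (*Hmgcs1*, chr13:119690101-119690350) and one within 1.5-fold of day 0 (*Mvk*, chr5:114444019-114444268) beside an LXR target (*Mylip*, chr13:45389492-45389741) and the ester hydrolase (*Nceh1*, chr3:27182754-27182964) that were higher. Capitals mark CCAAT or its complement ATTGG and, in *Hmgcs1*, the match to TCACNCCAC.
Hmgcs1: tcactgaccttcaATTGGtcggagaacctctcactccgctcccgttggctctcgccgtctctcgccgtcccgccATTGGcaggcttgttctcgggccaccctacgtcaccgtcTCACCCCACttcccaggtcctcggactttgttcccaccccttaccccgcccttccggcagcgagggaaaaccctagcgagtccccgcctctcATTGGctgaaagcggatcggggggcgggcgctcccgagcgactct
Mvk: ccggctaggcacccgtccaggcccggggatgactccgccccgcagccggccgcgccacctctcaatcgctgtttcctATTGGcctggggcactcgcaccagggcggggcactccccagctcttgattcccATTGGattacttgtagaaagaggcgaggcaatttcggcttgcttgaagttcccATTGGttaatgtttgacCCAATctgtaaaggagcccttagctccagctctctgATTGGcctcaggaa
Mylip: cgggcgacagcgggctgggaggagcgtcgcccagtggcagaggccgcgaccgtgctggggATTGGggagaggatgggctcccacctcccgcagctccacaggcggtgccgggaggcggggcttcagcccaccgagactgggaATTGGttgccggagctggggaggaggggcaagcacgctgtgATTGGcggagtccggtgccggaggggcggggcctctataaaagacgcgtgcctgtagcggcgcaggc
Nceh1: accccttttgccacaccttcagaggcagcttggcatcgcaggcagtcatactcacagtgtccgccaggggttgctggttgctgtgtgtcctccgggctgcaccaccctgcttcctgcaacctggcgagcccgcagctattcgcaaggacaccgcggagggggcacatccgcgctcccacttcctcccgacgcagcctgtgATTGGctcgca
CCAAT letters were thus present in promoters of genes that were lower, higher and within 1.5-fold at BDL day 3.

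Marker genes of several cell types differed between the groups. Macrophage markers were abundant in all groups (8 genes, summed normalized counts of 12903, 23833 and 20828 over day 0, BDL day 3 and BDL day 14), whereas 12 cholangiocyte and progenitor markers summed to 193, 150 and 162, and 3 of the 12 did not reach the minimum. Much of the macrophage sum at BDL day 14 was *Lyz2*, with means of 2280, 4560 and 11200. The median log2 ratio of the 8 macrophage markers to day 0 was then 0.17, with 5 above 0 and 3 below. The 5 Kupffer cell markers summed to 9212, 20869 and 1278, with all 5 non-overlapping and lower at BDL day 14 than at BDL day 3. The 6 markers of recruited macrophages summed to 119, 575 and 3054, but did not move together. At BDL day 3, *Trem2*, *Gpnmb* and *Chil3* had higher means than at day 0 and *Ccr2*, *Cx3cr1* and *Ly6c2* lower ones. At BDL day 14, 5 of the 6 had higher means than at day 0, and *Ly6c2* a lower one (21.9, 8.19 and 6.69). Markers of hepatocytes, the main cholesterol-producing cells of the liver, summed to 3323, 977 and 444 and those of stellate cells and fibroblasts to 1030, 20.8 and 93.9. Erythroid markers summed to 47433, 4829 and 2948, endothelial markers to 882, 561 and 863, T, NK and B cell markers to 159, 35.8 and 8.97, neutrophil markers to 533, 261 and 163 and proliferation markers to 31.6, 19.6 and 33.6. The part of these marker differences in the results was not tested. In such sorted bulk samples, fewer cells of a type and less RNA per cell cannot be told apart.

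At BDL day 3, genes of efflux, ester handling and desaturation were higher than at day 0, whereas the synthesis enzymes were mixed. Of the 33 genes, 12 were higher and 6 were lower, beside 19.2% and 29.2% of the 12891 genes kept (48.4% either way). The 12 were *Nsdhl*, *Dhcr7*, *Srebf1*, both desaturases, the 5 LXR target genes, *Soat1* and *Nceh1*, and the 6 were *Hmgcs1*, *Idi1*, *Fdft1*, *Sqle*, *Tm7sf2* and *Stard4*. With the added condition of a ratio over 2 SE, 10 remained higher and 3 lower, beside 10.8% and 14.5% of all genes. The groups were non-overlapping for 5 genes (*Scd1*, *Scd2*, *Lpcat3*, *Soat1* and *Nceh1*), each higher, beside 2.43% of all genes, and for 0 genes in the lower direction, beside 3.54%.

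**Figure D1:**
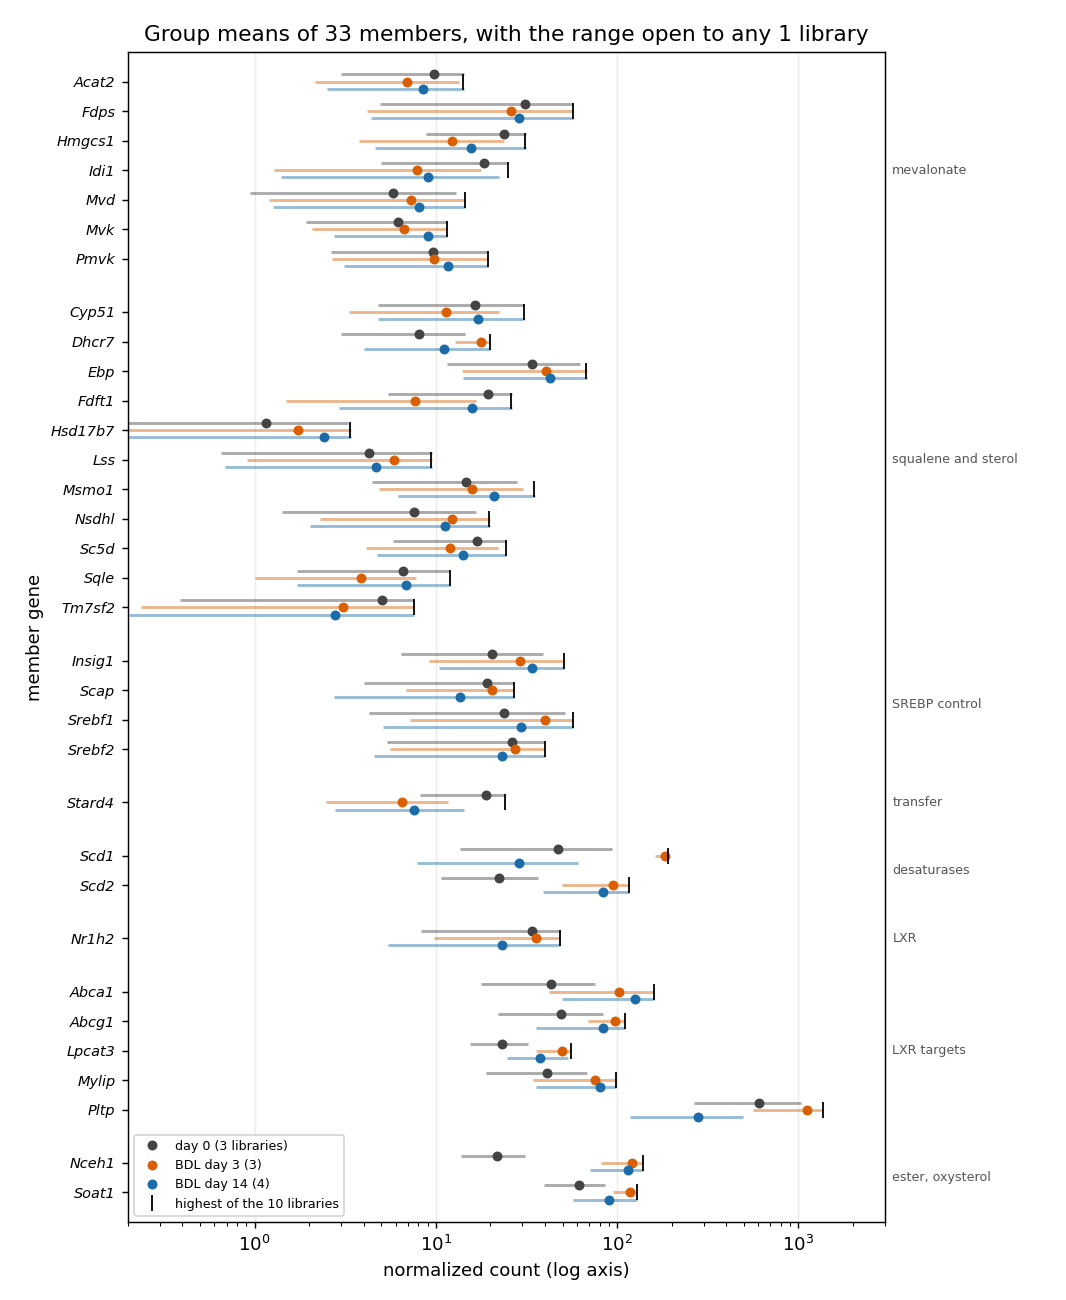
Group means (points) of the 33 genes kept, on a log axis of normalized counts, with the range open to any single library of the group (bars) and the highest of the 10 libraries (black ticks). The bar of *Scd1* at BDL day 3 stands clear of both other groups and that of *Nceh1* at day 0 of both BDL groups, whereas those of most synthesis enzymes overlap. The bars of *Hsd17b7* run past the left edge of the axis.

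In the mevalonate arm, 2 of 7 enzymes (28.6%) were lower at BDL day 3, near the 29.2% of all genes kept. None was higher, beside 19.2% of all genes kept. The median log2 ratio was -0.24, beside -0.02 over all genes kept. *Hmgcs1*, which condenses acetyl-CoA and acetoacetyl-CoA and is a classical SREBP target, had means of 23.9, 12.3 and 15.6 over day 0, BDL day 3 and BDL day 14, the order kept for all means that follow. Against day 0, its log2 ratios were -0.96 (SE 0.47) and then -0.62 (SE 0.44). The value at BDL day 14 was -0.38 without the highest library at day 0 and -1.20 without it at BDL day 14, and single libraries could overlap, from 8.83 to 31.3 at day 0 and from 3.78 to 23.7 at BDL day 3. Of the exon bases of *Hmgcs1*, 12.1% lie under another gene on the opposite strand. *Idi1*, the isomerase that supplies dimethylallyl diphosphate, had means of 18.5, 7.92 and 9.00 (log2 ratios to day 0 -1.22, SE 0.66, and -1.04, SE 0.62). Its highest library, at 25, could only have been a day 0 library. The other enzymes of this arm stayed within 1.5-fold of day 0 at both times. *Acat2*, the thiolase that opens the pathway, had means of 9.76, 6.97 and 8.50. The mevalonate kinase *Mvk* stood at 6.17, 6.65 and 9.09, the phosphomevalonate kinase *Pmvk* at 9.64, 9.76 and 11.7, and the decarboxylase *Mvd* at 5.78, 7.33 and 8.07. *Fdps*, which makes farnesyl diphosphate, had means of 30.9, 26.1 and 28.7, but 26.7% of its exon bases lie under another gene on the same strand. All 7 enzymes had a higher mean at BDL day 14 than at BDL day 3, by log2 ratios of 0.14 to 0.45 that were each below 1.5-fold and below 2 SE.

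In the squalene and sterol arm, 3 of 11 enzymes (27.3%) were lower and 2 (18.2%) were higher at BDL day 3. Both shares were near those of all genes kept (29.2% lower and 19.2% higher). *Fdft1*, squalene synthase and the first step committed to sterols, had means of 19.4, 7.69 and 15.8, with log2 ratios of -1.34 (SE 0.61) at BDL day 3 against day 0 and 1.04 (SE 0.57) at BDL day 14 against BDL day 3. Of its exon bases, 18.3% overlap *Ctsb* on the opposite strand, and *Ctsb* had means of 3350, 8410 and 7290, in the opposite direction to *Fdft1* at BDL day 3. *Sqle*, the squalene monooxygenase that limits the rate of this arm, followed the same order of means (6.55, 3.85 and 6.84), with log2 ratios of -0.77 (SE 0.53) and 0.83 (SE 0.49) for these comparisons. The value at BDL day 3 moved to -0.01 when the highest library was taken out of day 0, so the value rests on 1 library if that library was of day 0. The ratio between the BDL groups was 0.42 without the highest library in BDL day 14. *Tm7sf2*, a sterol reductase, had means of 5.05, 3.08 and 2.76 (log2 ratios to day 0 -0.71, SE 0.84, and -0.87, SE 0.79). These moved to -0.30 and -0.46 without the highest library at day 0, and to -2.58 and -2.12 if that library was instead left out of the BDL group, which could hold it too. Moreover, 12.1% of its exon bases are shared with *Vps51* on the same strand.

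*Dhcr7*, the reductase of the last step to cholesterol, was the one synthesis enzyme higher at BDL day 3 by over 2 SE. Its means were 8.05, 17.7 and 11.1, with log2 ratios to day 0 of 1.14 (SE 0.41) and 0.46 (SE 0.38), and of -0.67 (SE 0.38) between the BDL groups. Each BDL day 3 library had to lie between 12.8 and 20, and the highest open to a day 0 library was 14.5, so the groups nearly separated. *Nsdhl*, a sterol dehydrogenase, had means of 7.61, 12.3 and 11.3 and a log2 ratio of 0.69 (SE 0.62) at BDL day 3, which moved to 0.18 when the highest library was taken out of that group. *Hsd17b7*, the ketosteroid reductase that acts beside it, was low, at 1.16, 1.73 and 2.42, and its log2 ratio of 1.06 at BDL day 14 against day 0 had an SE of 1.13. The remaining 5 enzymes of this arm were within 1.5-fold of day 0 at both times. *Lss*, which closes the sterol rings, had means of 4.27, 5.88 and 4.69, the demethylase *Cyp51* of 16.5, 11.4 and 17.1, and the methyl oxidase *Msmo1* of 14.6, 15.8 and 20.9. The isomerase *Ebp* had means of 33.8, 40.5 and 42.6 and the desaturase *Sc5d* of 16.8, 11.9 and 14.2.

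Over the 18 synthesis enzymes together, 2 (11.1%) were higher and 5 (27.8%) lower at BDL day 3, beside 19.2% and 29.2% of all genes kept. The share of lower enzymes was thus near that of all genes. At BDL day 14, 1 (5.56%) was higher and 3 (16.7%) lower, beside 21.2% and 28.7%. The median log2 ratio was -0.11 at BDL day 3, beside -0.02 over all genes, and 0.10 at BDL day 14, beside -0.04. Their summed normalized counts were 238, 209 and 240, and none of the 18 was non-overlapping in any comparison. The sign of the median at BDL day 3 depended on the scaling, as it became 0.02 when groups were scaled by their sums. At BDL day 14 the median was -0.37 without the highest library of each gene in that group, a step that can only lower the mean of the group.

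Genes of SREBP control were close to day 0 in most comparisons. *Srebf2*, which encodes the SREBP form that drives cholesterol synthesis, had means of 26.3, 27.5 and 23.3, and *Scap* of 19.2, 20.4 and 13.6, with all ratios within 1.5-fold or at it. Of the exon bases of *Scap*, 13.2% lie under another gene on the opposite strand. *Srebf1*, the form tied to fatty acid synthesis and itself an LXR target, had means of 23.7, 39.8 and 29.4 and a log2 ratio of 0.75 (SE 0.63) at BDL day 3, which was 0.40 without the highest library in that group. *Insig1*, both a brake on SREBP and one of its targets, had means of 20.5, 29.0 and 34.1 and log2 ratios to day 0 of 0.50 (SE 0.47) and 0.73 (SE 0.44). Without the highest library in the BDL group these became -0.19 and 0.47, so the call at BDL day 14 rests on 1 library if that library was of this group. *Stard4*, which carries sterols between membranes and is also an SREBP target, was the member lowest against day 0 at both times. Its means were 18.9, 6.52 and 7.57, with log2 ratios of -1.54 (SE 0.40) and -1.32 (SE 0.38). Only day 0 could hold its highest library (24.0), and single libraries could range from 8.18 to 24.1 at day 0 and from 2.47 to 11.7 at BDL day 3, so a small overlap could not be left out. Thus *Stard4*, *Hmgcs1* and *Idi1*, all known SREBP targets, had lower means at both times. Of the 3, *Stard4* alone differed by over 2 SE at both times.

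**Figure D2:**
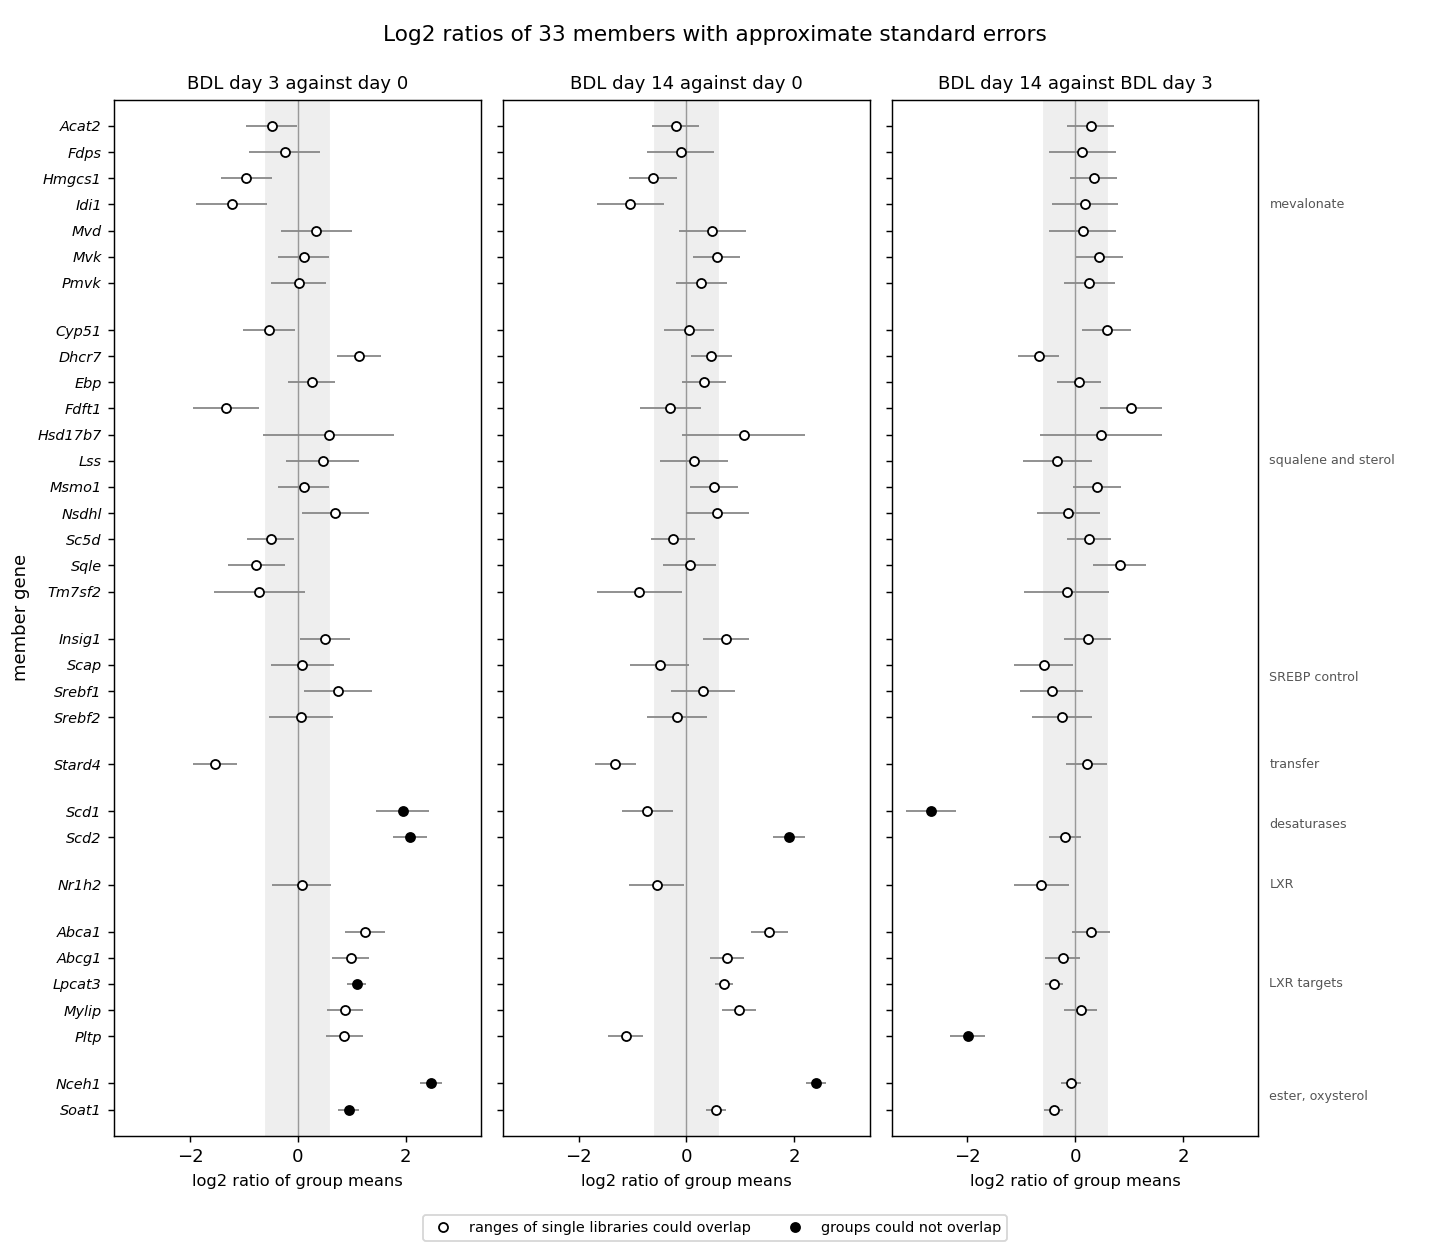
Log2 ratios of group means for the 33 genes in the 3 comparisons, with approximate SE (bars), the band within 1.5-fold in grey and filled points where the groups could not overlap. Filled points are *Scd1*, *Scd2*, *Lpcat3*, *Soat1* and *Nceh1* at BDL day 3, *Scd2* and *Nceh1* at BDL day 14 against day 0, and *Scd1* and *Pltp*, both lower, at BDL day 14 against BDL day 3.

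The LXR target genes, the desaturases and the ester genes were higher together at BDL day 3. All 9 that were kept passed 1.5-fold, beside 19.2% of all genes kept. Their median log2 ratio was 1.09, with a range of 0.87 to 2.47. Each of these ratios was also over 2 SE from 0, beside 10.8% of all genes that were higher under both conditions. Each of the 9 also stayed beyond 1.5-fold under both other scalings, with a pseudocount of 1 and without the highest library in any 1 group. In the same comparison 7 of 8 macrophage markers were higher, again beside 19.2% of all genes kept, with a median log2 ratio of 0.95. The part of these markers in the result was not tested. The receptor itself among the members, *Nr1h2* (LXR beta), had means of 34, 35.8 and 23.2, with log2 ratios to day 0 of 0.07 (SE 0.54) and -0.55 (SE 0.51).

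*Abca1* and *Abcg1*, the transporters that pass cholesterol to apolipoprotein A-I and to high-density lipoprotein, were higher at both times. *Abca1* had means of 43.3, 103 and 126, or log2 ratios to day 0 of 1.25 (SE 0.38) and 1.54 (SE 0.35). *Abcg1* had means of 49.3, 97.3 and 83.1, or log2 ratios of 0.98 (SE 0.34) and 0.75 (SE 0.32). For *Abcg1* at BDL day 3, single libraries had to lie between 69.3 and 111, beside a ceiling of 83.2 at day 0. *Mylip*, a ubiquitin ligase that marks lipoprotein receptors for degradation, had means of 41.0, 75.2 and 80.7 (log2 ratios 0.88, SE 0.33, and 0.98, SE 0.31). These 3 genes thus kept a higher mean through BDL day 14, and none differed by 1.5-fold between the BDL groups.

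*Lpcat3*, which places polyunsaturated fatty acids in phospholipids, had means of 23.2, 49.4 and 37.8 (log2 ratios to day 0 1.09, SE 0.18, and 0.70, SE 0.17). At BDL day 3 its libraries could not overlap day 0, with 35.7 as the lowest open to BDL day 3 and 32 as the highest open to day 0, and its highest library (55.6) could only have been a BDL day 3 library. It shares 10.2% of its exon bases with *Emg1* on the opposite strand, which had means of 37.2, 46.3 and 42.9. *Pltp*, the phospholipid transfer protein of plasma and of macrophages, was the most abundant member on any scale, at 238, 433 and 109 normalized counts per kilobase of exon against at most 37.4 for each other member. Its means were 609, 1110 and 279. It was higher at BDL day 3 (log2 ratio 0.87, SE 0.35) and lower at BDL day 14 (-1.13, SE 0.33) than at day 0, and the BDL groups could not overlap (-1.99, SE 0.33, with 560 as the lowest open to BDL day 3 and 498 as the highest open to BDL day 14). *Ctsa*, with which *Pltp* shares 19.3% of its exon bases on the opposite strand, had means of 699, 1220 and 904 and so was not lower than day 0 at BDL day 14.

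The stearoyl-CoA desaturases, which make monounsaturated fatty acids that serve for cholesterol esters and membranes, parted at BDL day 14. *Scd1* had means of 47.5, 183 and 28.8. At BDL day 3 every library of *Scd1* had to lie between 162 and 192, beside at most 93.4 at day 0 and 60.9 at BDL day 14, so that this group stood apart from both others (log2 ratio 1.95, SE 0.50, against day 0, and -2.67, SE 0.47, for BDL day 14 against BDL day 3). Its ratio of BDL day 14 to day 0 was -0.72 (SE 0.47), and -0.39 with scaling by group sums. *Scd2* had means of 22.4, 94.7 and 83.6, with log2 ratios to day 0 of 2.08 (SE 0.32) and 1.90 (SE 0.30), both non-overlapping, and -0.18 (SE 0.30) between the BDL groups. The genes are similar neighbours on chromosome 19 (*Scd1* 44394455 to 44407879, minus strand; *Scd2* 44293674 to 44306864, plus strand; mm10), and how reads that match both were counted was not given in the sources used here.

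Both genes of ester handling that were kept were higher at BDL day 3. *Nceh1*, a neutral cholesterol ester hydrolase of macrophages on chromosome 3 (27182965 to 27284608, plus strand), had means of 21.8, 121 and 115. Its log2 ratios to day 0 of 2.47 (SE 0.20) and 2.40 (SE 0.19) were the largest of the 33 genes, and both BDL groups could not overlap day 0, with 13.8 to 30.9 open to a day 0 library, 81.8 to 140 to BDL day 3 and 71.3 to 140 to BDL day 14. *Soat1*, the opposing enzyme that esterifies cholesterol, had means of 61.3, 118 and 89.7 (log2 ratios 0.94, SE 0.19, and 0.55, SE 0.18) and was non-overlapping with day 0 at BDL day 3, where single libraries lay between 94.9 and 129 beside at most 85.9. The hydrolase was therefore 5.55-fold of day 0 at BDL day 3 and the esterifying enzyme 1.92-fold.

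At BDL day 14 against day 0, 8 of the 33 genes were higher and 6 lower, beside 21.2% and 28.7% of all genes kept (49.9% either way). The 8 were *Hsd17b7*, *Insig1*, *Scd2*, *Abca1*, *Abcg1*, *Mylip*, *Lpcat3* and *Nceh1*, and the 6 were *Hmgcs1*, *Idi1*, *Tm7sf2*, *Stard4*, *Scd1* and *Pltp*. Of these, 6 higher and 2 lower genes also passed 2 SE (12.6% and 16.3% of all genes), and *Scd2* and *Nceh1* were non-overlapping (2.41% of all genes were higher without overlap, and 4.18% lower). Scaling by group sums, which shifted the median of all genes by 0.33, gave 17 higher and 3 lower. Both comparisons use the same day 0 libraries. Of the 9 efflux, desaturase and ester genes, 6 were higher, 2 (*Scd1* and *Pltp*) were lower and *Soat1* was within 1.5-fold.

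Between BDL day 3 and BDL day 14, most members stayed within 1.5-fold. In all, 2 genes were higher (*Fdft1* and *Sqle*) and 4 were lower (*Dhcr7*, *Scd1*, *Nr1h2* and *Pltp*), beside 21.2% and 19.6% of all genes kept (40.8% either way), and scaling by group sums gave 6 higher and 2 lower. *Cyp51* and *Scap* stood exactly at 1.5-fold in the rounded means and were not counted. *Nr1h2* had a log2 ratio of -0.63 (SE 0.51), which was -0.35 without the highest library in BDL day 3, and that of *Dhcr7* was then -0.58. Of these 6 genes, *Scd1* and *Pltp* alone passed 2 SE and alone could not overlap, both lower, beside 10.1% and 2.08% of all genes for these conditions. The 5 Kupffer cell markers were lower in the same comparison with a median log2 ratio of -4.42, and the 8 macrophage markers had a median of -0.75.

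**Figure D3:**
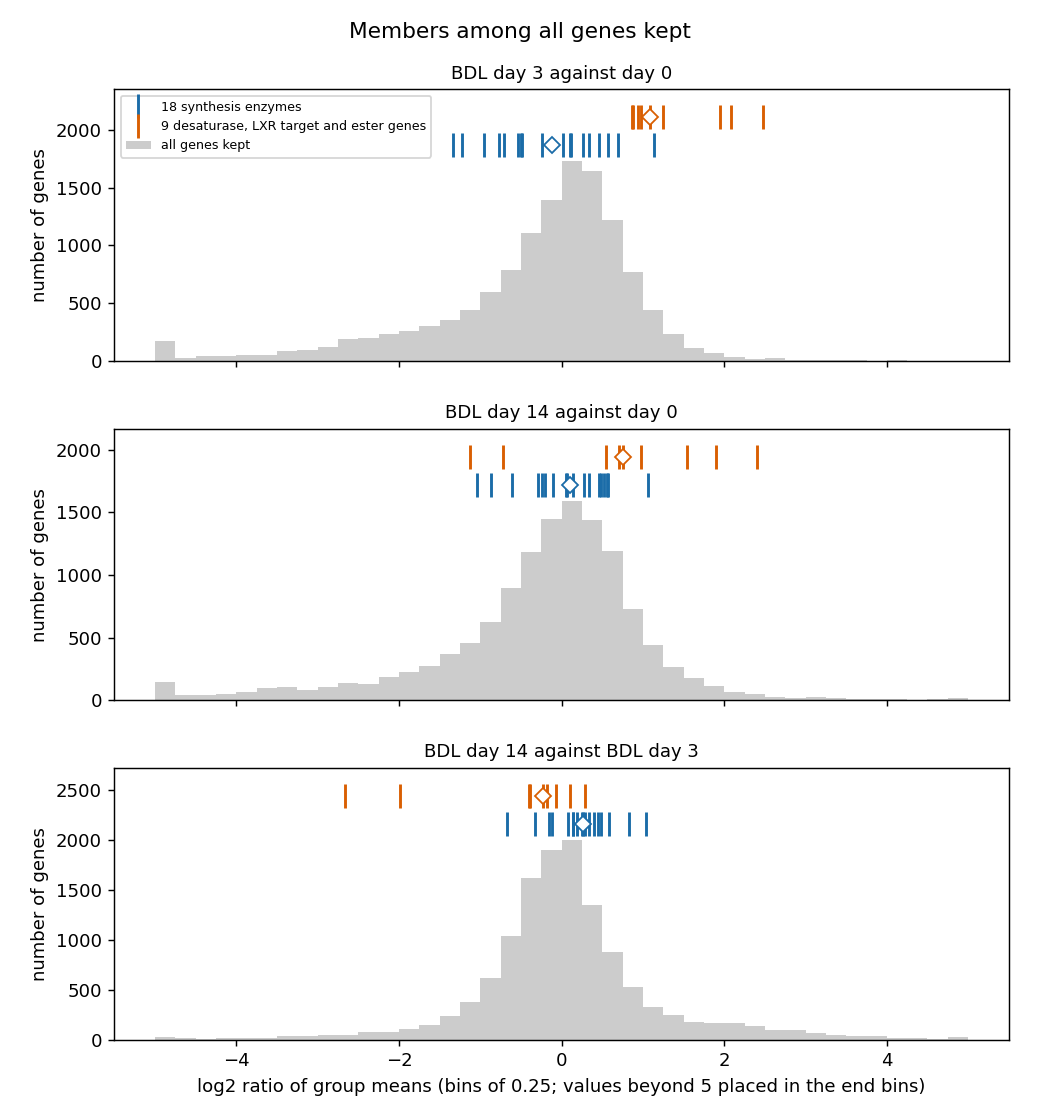
Number of genes by log2 ratio of group means for the 12891 genes kept (grey, bins of 0.25) in each comparison, with the 18 synthesis enzymes (blue ticks) and the 9 desaturase, LXR target and ester genes (orange ticks) above; diamonds mark the medians. The 9 sit at 0.87 to 2.47 at BDL day 3, with a median of 1.09, while the synthesis enzymes straddle 0 with a median of -0.11.

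Beyond the members, 58 further genes of these pathways were listed, of which 57 were found and 53 kept. At BDL day 3, 22 (41.5%) were higher and 9 (17.0%) lower, beside 19.2% and 29.2% of all genes kept. At BDL day 14, 14 (26.4%) were higher and 10 (18.9%) lower, beside 21.2% and 28.7%, so the share of higher genes was then near that of all genes. These shares of all genes are also the background for the smaller groups that follow. The group of uptake, lysosomal release and transfer had the most genes higher at BDL day 3, 10 of 15, with 2 lower and a median log2 ratio of 0.90. *Lipa*, the lysosomal acid lipase that frees cholesterol from ingested esters, had means of 166, 554 and 480 and was non-overlapping with day 0 at both times (log2 ratios 1.74, SE 0.22, and 1.53, SE 0.21). *Npc1*, which exports that cholesterol from the lysosome, had means of 38.9, 93.3 and 135, with a log2 ratio of 1.80 (SE 0.32) at BDL day 14, also non-overlapping. The scavenger receptor *Cd36* had means of 70.8, 208 and 319. Of the 6 other sterol and isoprenoid synthesis genes, 2 were higher and 2 lower at BDL day 3, and *Por*, the electron donor of the sterol demethylase and squalene monooxygenase, had means of 35.0, 93.2 and 76.3 and did not overlap day 0 at either time.

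Among 6 LXR partners and targets, 3 were higher and none lower at BDL day 3, whereas 1 was higher and 1 lower at BDL day 14. *Smpdl3a*, an LXR target phosphodiesterase, had means of 185, 522 and 403. *Nr1h3* (LXR alpha), the form of the receptor that resident macrophages express strongly, had means of 274, 457 and 34.9. Its ratio at BDL day 3 (log2 0.74, SE 0.56) became -0.07 without the highest library in that group. Against day 0, its log2 ratio reached -2.97 (SE 0.53) by BDL day 14, where its libraries could not overlap either other group. *Abca1*, *Abcg1* and *Mylip* had their means at BDL day 14 at or near those of BDL day 3 in these same libraries, whereas *Scd1*, *Pltp* and *Nr1h3* were lower. *Lpcat3* and *Smpdl3a* stayed within 1.5-fold between the BDL groups (log2 ratios -0.39 and -0.37). *Acly* and *Stard5*, listed here outside the LXR genes, were lower too (-1.26 and -1.60). Neither the part of *Nr1h3* nor that of the lower Kupffer cell markers in these differences was tested.

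Of the 17 other SREBP regulators and targets, 5 were higher and 2 lower at BDL day 3, and *Fads2*, a fatty acid desaturase, had means of 17.2, 5.57 and 5.57. Of the 9 oxysterol, ester and bile export genes, 2 were higher and 3 lower at BDL day 3 and 1 was higher and 3 lower at BDL day 14. *Ces1d*, a carboxylesterase abundant in hepatocytes, had means of 34, 9.25 and 2.71, and *Lcat*, a plasma enzyme made in hepatocytes, of 3.90, 2.69 and 0.538. *Cyp39a1*, an oxysterol hydroxylase of liver, had means of 2.56, 0.604 and 1.19, and *Vldlr*, a lipoprotein receptor, of 2.44, 0.301 and 0.528. *Soat2*, the SOAT form of hepatocytes and gut, had means of 0.475 (at the floor of the table), 1.19 and 1.49. Of the 9 hepatocyte markers, 8 and then 9 were lower than at day 0 after BDL, and their part in the lower means of *Ces1d* and *Lcat* was not tested.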

How the data were processed

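Livers were digested, nonparenchymal GFP(+) cells were sorted by FACS, and libraries (TruSeq mRNA) were sequenced on a NextSeq. The authors trimmed reads (quality 20, length 25), aligned them with STAR to mm10, counted them on GENCODE M18 genes and normalized by upper quartile in Partek Flow. The processing notes name STAR 2.6.1d, and the study's methods another version. The deposited table holds signal values, namely the least squares mean of normalized counts per group, the arithmetic and geometric means over all libraries and the highest library. Its columns of the authors' own comparisons (p-value, FDR, ratio, fold change, limits) were not used. There are 0 columns per library, so the planned test in limma was not run and depth is unknown.

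Genes were kept at 10 or more normalized counts summed over the 10 libraries (12891 of 16971). Group sizes of 3, 3 and 4 gave back the overall mean within 0.469% (99th percentile), the next best set 2.70%. Log2 ratios used no pseudocount. The spread, its SE, the ranges of single libraries and the exclusion of overlapping genes were added after seeing the data; the steps were tested on simulated data. A mean no larger than 4 times the lowest one in its group counted as at the floor. Coordinates of the 34 members were identical in GENCODE M21, which gave exon overlaps. Members, lists and the rule for named genes (all members; up to 8 further pathway genes per comparison against day 0, by size of ratio) were chosen with earlier results of these data known. *Ctsa*, *Ctsb*, *Emg1* and *Vps51* were named for their overlap with members. Python 3.11.15, numpy 2.4.6 and pandas 2.3.3 were used.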

Additional observations from a re-analysis of the deposited data

How the results depend on the processing

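No paired analysis was possible because the table has no values per library, and for the same reason each replicate in turn could not be left out. Scaling by median ratio moved the median of all genes by at most 0.03 (log2), and scaling by group sums by 0.13, 0.33 and 0.20 for the ratios of BDL day 3 to day 0, of BDL day 14 to day 0, and of one BDL group to the other. No member called at 1.5-fold changed sign under any alternative run. In that order of comparisons, a limit of 2-fold left 9, 7 and 3 members of 18, 14 and 6, a ratio over 2 SE left 13, 8 and 2, and groups that could not overlap left 5, 2 and 2. Between the BDL groups, 13 members passed without the highest library of each gene in BDL day 3 (11 higher) and 11 without that in BDL day 14 (10 lower). Leaving out the highest library can only lower the mean of a group, and it was left out of any group that could hold it. The direction of these shifts was thus fixed in advance, and the counts cannot show whether a result depended on 1 library. The median of the 18 synthesis enzymes at BDL day 14 against day 0 became -0.37 without the highest library of each gene in BDL day 14, a shift whose direction was fixed in the same way. Without the filter, with a mean of at least 10, with a pseudocount of 1 and without genes that share over 10% of their exon bases, counts stayed within 1.5 times. Among the ratios of single genes, 19 fell within the stricter limit of 2-fold and 6 within 1.5-fold under scaling by group sums, where 16 others passed it. Depth is unknown, so counting error could not be given, and means near the floor (*Ch25h*, *Hsd17b7*, *Soat2*, *Vldlr*) carry little information. The sex and age of the mice, the 2 BDL day 14 samples that are not in the table, and read sharing between overlapping genes could not be separated from the results.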
